A study of Homo sapiens with 16 samples.

Results

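Potassium channel genes were taken as all RefSeq protein-coding genes on chromosomes 1 to 22 and X of hg38 whose symbol begins with KCN, which gave 96 of 19970 genes. They comprise the pore-forming subunits of the voltage-gated, calcium-activated, inwardly rectifying and leak channels, together with auxiliary subunits that carry a KCN symbol. For each gene the window was the gene body plus 20 kb on either side, and the measure was the number of bases in that window that lay in an accessibility peak, here called covered bases. All 96 members passed the filter (500 covered bases or more in 2 or more libraries), as did 18751 genes in all. Of the 96 members, 53 had another protein-coding gene in the window, and 6 pairs of members shared part of a window.

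The assay was ATAC-seq: the transposase Tn5 inserts sequencing adapters into open DNA. The organoids had genotype WT, were enriched for dorsal telencephalon and were grown from one line of the established human embryonic stem cell line H9, carrying a pair of reporters. Progenitors were sorted as SOX2::EGFP+ cells, with P2A-EGFP placed at the end of 1 SOX2 allele, and neurons as hSyn1::dtomato+ cells, with dTomato under the human synapsin 1 promoter in the AAVS1 locus. Both populations were collected at days 40, 60, 90 and 120 of organoid development, with 2 libraries in each of the 8 groups. Whether both libraries of a group stem from different cultures is not in the labels, and p-values therefore reflect library-to-library spread that could be technical.

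Potassium channels let potassium leave or enter the cell along its gradient and thereby set the resting potential, shape the action potential and limit repetitive firing. In neurons the voltage-gated, calcium-activated and Kv7 channels serve excitability, whereas glia and their precursors rely on inward rectifiers, above all Kir4.1, to keep a negative resting potential and to take up extracellular potassium. An accessible region marks DNA that proteins can reach, such as a promoter or an enhancer, and is not itself a measure of transcription.

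The 16 peak lists held 67977 to 138432 peaks covering 36.88 to 104.22 Mb. The shortest list was that of progenitor day 120 replicate 2, followed by neuron day 60 replicate 2 with 54.85 Mb. Because list length differed in this way, loci were compared as log2 of covered bases plus 500 minus log2 of the covered bases of the library, which is called scaled coverage below. The SOX2 window had 13.3 kb ± 3.50 of covered bases in progenitors and 5.59 kb ± 1.64 in neurons (SD, n = 8 each), a log2 difference in scaled coverage of 1.12 ± 0.13 (SE, limma adjusted p = 1.07e-06). SYN1, whose promoter drives the neuronal reporter, differed by 0.07 ± 0.14 (limma adjusted p = 0.779). Of the marker loci, 7 of 10 for radial glia were higher in progenitors and 4 of 10 for neurons were higher in neurons.

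Over the 4 days together, 26 of the 96 potassium channel loci had higher scaled coverage in neurons and 12 had higher scaled coverage in progenitors (limma, Benjamini-Hochberg adjusted p under 0.05 over 18751 genes). These are 27.1% and 12.5% of the members, beside 11.1% and 9.89% of all genes tested. The median log2 difference, progenitors minus neurons, was -0.14 over the members and -0.05 over all genes. Without the 2 shortest lists the counts were 29 and 13. When covered bases were not scaled to the library, 7 members were higher in neurons (KCNA3, KCNB2, KCNH8, KCNK12, KCNS2 and KCNU1 among them) and 6 in progenitors (KCNE1, KCNJ8, KCNJ10, KCNJ15, KCNJ16 and KCNMB2), beside 3.48% and 5.46% of all genes. Called loci outside these groups did not pass without scaling. With each list cut to its strongest peaks until it covered as many bases as the shortest, called lists of equal length below, 27 of 89 members tested (30.3%) were higher in neurons and 7 (7.87%) in progenitors, beside 16.6% and 11.4% of all genes, so that the members' share higher in progenitors was then below that of all genes. The difference had the same sign at all 4 days in 18 of the 26 and 10 of the 12. On covered bases themselves, no member had all 8 libraries of one population above all 8 of the other, a separation seen in 0.32% of all genes toward progenitors and 0.171% toward neurons. In bulk sorted cells a different mix of cell types and a different accessibility within 1 type cannot be told apart.

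Members are long genes: their median length was 39.18 kb, against 26.59 kb for all genes tested. Within genes of 50 to 200 kb, 39.1% of the 23 members and 14% of all genes were higher in neurons. Among genes over 200 kb the shares were 42.1% of 19 members and 23.6% of all genes, and under 50 kb they were 16.7% of 54 members and 8.66% of all genes. The corresponding shares higher in progenitors were 21.7% and 13.8%, 21.1% and 21.5%, and 5.56% and 7.09%. Long genes were thus called more often in either direction, and the members' neuronal share lay above that of all genes in each of these length classes.

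**Figure D1:**
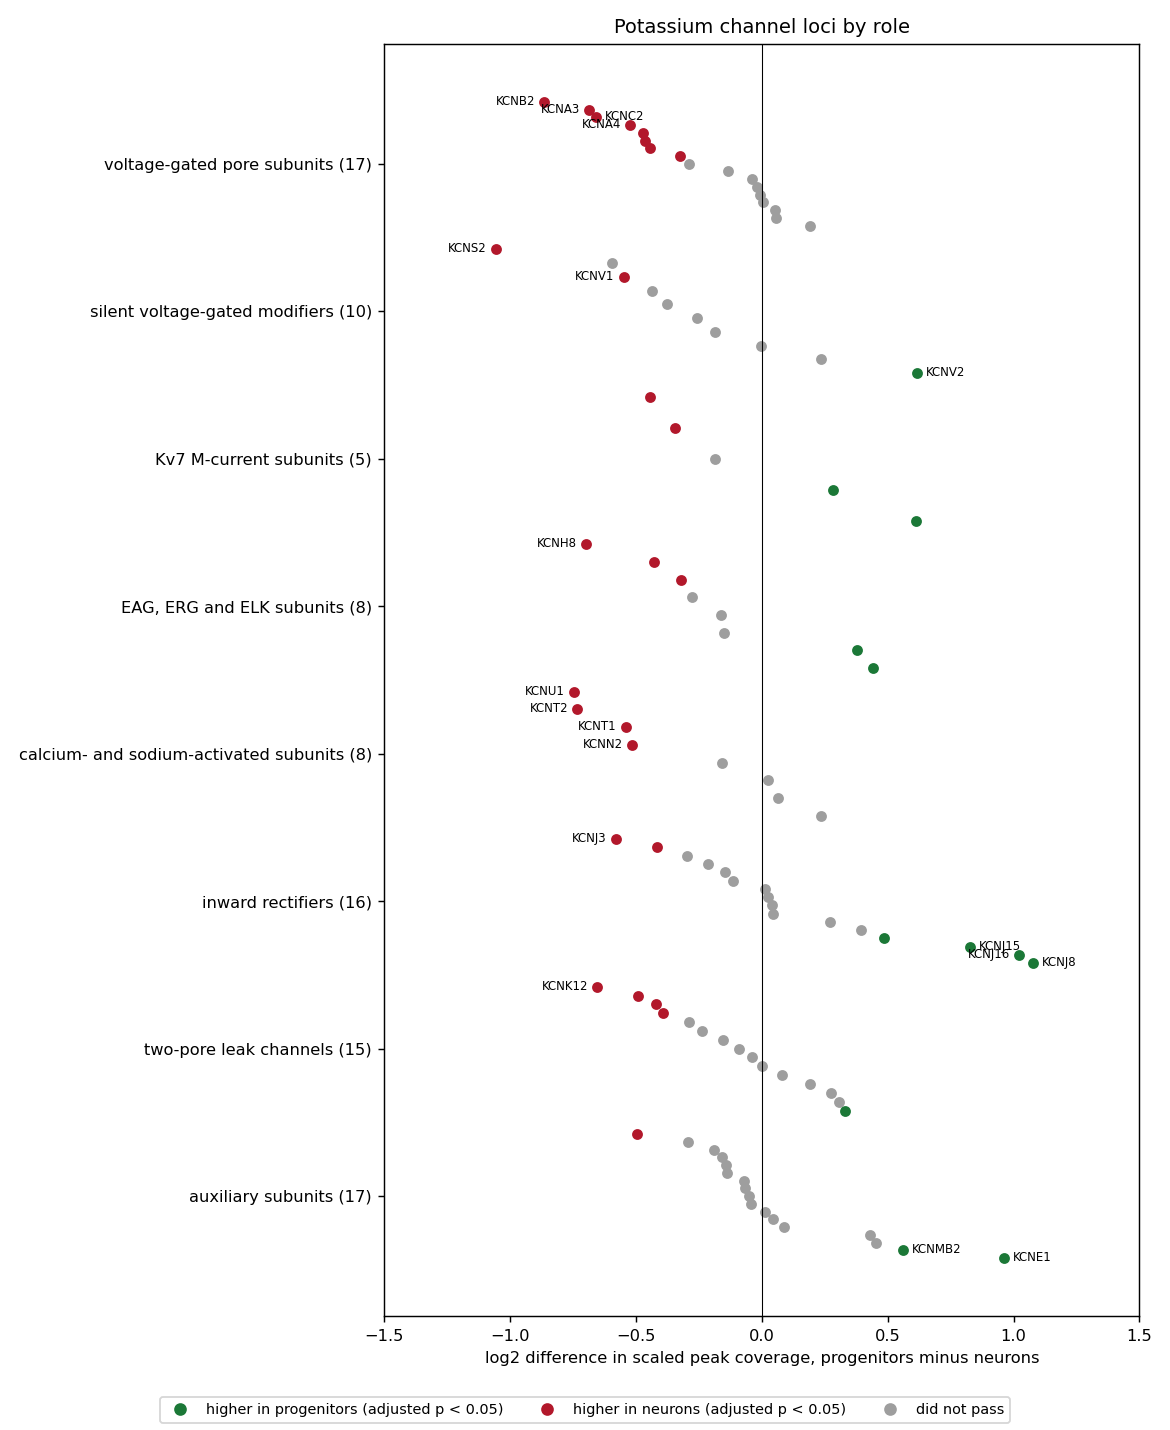
Log2 difference in scaled coverage, progenitors minus neurons, for each of the 96 potassium channel loci, grouped by role (number of members in brackets); each point is 1 locus and the vertical spread within a role only orders the points. Green and red mark the 12 and 26 loci that passed the test; red points make up 8 of the 17 voltage-gated pore subunits, and the inward rectifiers hold the points farthest to the right.

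Inward rectifiers pass potassium more readily into than out of the cell. Of 16 such loci, 4 were higher in progenitors (KCNJ8, KCNJ16, KCNJ15 and KCNJ10) and 2 in neurons (KCNJ3 and KCNJ6), with a median log2 difference of 0.03. These are 25% and 12.5% of the loci, beside 9.89% and 11.1% of all genes tested. KCNJ10 encodes Kir4.1, the chief potassium channel of astroglia, and KCNJ16 encodes Kir5.1, which joins it in heteromeric channels. KCNJ8 encodes Kir6.1, a pore of ATP-sensitive channels that is prominent in pericytes and vascular smooth muscle.

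Their promoters are shown because the loci share a direction while their promoters do not share a pattern of peaks. The 250 bases before the outermost RefSeq start (GRCh38.p14) are printed 5′ to 3′ on the gene's strand, with every CG in capitals, since CG-rich promoters tend to be accessible in many cell types. They lie at chr1:160070161-160070410 for KCNJ10, chr12:21774707-21774956 for KCNJ8, both on the minus strand, and chr17:70074975-70075224 on the plus strand for KCNJ16.
KCNJ10: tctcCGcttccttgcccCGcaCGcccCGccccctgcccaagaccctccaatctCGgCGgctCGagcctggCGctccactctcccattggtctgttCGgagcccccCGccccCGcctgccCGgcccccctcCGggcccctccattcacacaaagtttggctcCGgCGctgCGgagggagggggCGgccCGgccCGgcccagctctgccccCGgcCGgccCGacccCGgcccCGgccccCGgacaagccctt
KCNJ8: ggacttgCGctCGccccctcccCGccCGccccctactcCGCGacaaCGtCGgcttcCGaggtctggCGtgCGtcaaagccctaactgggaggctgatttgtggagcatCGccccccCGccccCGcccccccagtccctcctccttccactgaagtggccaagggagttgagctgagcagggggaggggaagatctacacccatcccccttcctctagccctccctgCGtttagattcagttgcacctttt
KCNJ16: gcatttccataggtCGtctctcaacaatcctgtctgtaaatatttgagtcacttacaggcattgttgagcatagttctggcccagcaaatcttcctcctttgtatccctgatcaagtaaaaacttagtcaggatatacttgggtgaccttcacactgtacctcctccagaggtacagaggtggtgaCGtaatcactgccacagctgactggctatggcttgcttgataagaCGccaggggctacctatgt
The printed stretches hold 25 CG in KCNJ10, 15 in KCNJ8 and 3 in KCNJ16. A peak overlapped the promoter of KCNJ10 in 8 of 8 progenitor and 8 of 8 neuron libraries, and that of KCNJ8 in 8 and 5. The KCNJ16 start printed here had a peak in 0 progenitor libraries and 1 neuron library. At the KCNJ10 and KCNJ16 starts the presence of a peak thus did not separate the populations.

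At the KCNJ10 locus (chromosome 1, 160037467 to 160070160, 32.7 kb long) progenitor libraries had 4.16 to 11.1 kb of covered bases with a median of 8.70 kb, and neuron libraries 4.30 to 7.11 kb with a median of 5.47 kb. All progenitor libraries but 1, day 120 replicate 2 with 4.16 kb, lay above all 8 neuron libraries. The log2 difference in scaled coverage was 0.48 ± 0.10 (SE, limma adjusted p = 0.00141), and it ran from 0.28 at day 120 to 0.62 at day 40. Within the gene body alone, covered bases were 2.98 kb ± 1.33 in progenitor and 0.665 kb ± 0.308 in neuron libraries, with no overlap between the 8 and 8 libraries (exact permutation test, two-sided, unadjusted p = 0.000155, the smallest that 8 against 8 libraries allow). In the window with 20 kb flanks the exact permutation test gave an unadjusted p = 0.00435. The share of all genes so separated in the gene body was not counted. One intragenic region of 1237 bases at 160061876 to 160063112, 7048 bases from the nearest listed start, had a peak in 8 of 8 progenitor libraries and 1 of 8 neuron libraries (Fisher's exact test, adjusted p = 0.0323 over all regions tested). The neighbouring KCNJ9, which encodes a G protein-gated Kir3 subunit and shares 28623 bases of window with KCNJ10, differed by 0.27 (limma adjusted p = 0.0869). With lists of equal length the KCNJ10 difference was 0.16 (limma adjusted p = 0.283).

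KCNJ16 (chromosome 17, 70075225 to 70135608) had 0.785 to 3.1 kb of covered bases in progenitors, median 1.81 kb, and 0.234 to 1.31 kb in neurons, median 0.555 kb. Progenitors had on average 3.04 times the covered bases of neurons, the ranges overlapped, and the log2 difference in scaled coverage was 1.02 ± 0.19 (SE, limma adjusted p = 0.000333). A region of 823 bases inside the gene, at 70089543 to 70090365, had a peak in 7 progenitor and 0 neuron libraries. With lists of equal length the KCNJ16 call, too, was lost, at a log2 difference of 0.00 (limma adjusted p = 0.995). KCNJ8 had 0.368 to 2.71 kb in progenitors, median 1.72 kb, and 0.00 to 1.31 kb in neurons, median 0.492 kb. The difference was positive at each day, and over the days the log2 difference was 1.08 ± 0.21 (SE, limma adjusted p = 0.000696).

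KCNJ15, which encodes Kir4.2, had 1.65 kb ± 0.933 in progenitor and 0.740 kb ± 0.745 in neuron libraries (SD, n = 8 each), a log2 difference of 0.83 ± 0.23 (SE, limma adjusted p = 0.0105). Its direction was not the same at all days: the difference was 2.06 at day 60 and -1.44 at day 120, when both progenitor libraries (0.371 and 0.170 kb) lay below both neuron libraries (1.52 and 1.87 kb). The KCNJ15 call was lost with flanks of 5 kb, in the gene body alone, with a pseudocount of 2000 bases and with lists of equal length, where the difference was 0.02 (limma adjusted p = 0.933). KCNJ3, encoding the Kir3.1 subunit of G protein-gated channels that neurotransmitters open, went the other way, with 3.97 kb ± 1.21 in progenitor and 6.02 kb ± 1.80 in neuron libraries and a log2 difference of -0.58 ± 0.12 (SE, limma adjusted p = 0.00107). Its partner KCNJ6 (Kir3.2) had 8.40 kb ± 3.41 and 10.1 kb ± 2.63, a difference of -0.42 ± 0.10 (SE, limma adjusted p = 0.00460). The remaining Kir3 loci did not pass, with KCNJ9 at 0.27 as above and KCNJ5 at 0.04 (limma adjusted p = 0.871). The KCNJ9 window includes bases shared with KCNJ10, and its gene body went the other way. There covered bases were 0.467 kb ± 0.164 in progenitor and 1.08 kb ± 0.310 in neuron libraries (exact permutation test, unadjusted p = 0.000622). With flanks of 5 kb they were 1.39 kb ± 0.483 and 1.99 kb ± 0.432.

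Markers of other cells were counted in the same contrast, in which 9.89% of all genes tested were higher in progenitors and 11.1% in neurons. Of 8 astroglial markers, 5 were higher in progenitors and none in neurons, with summed covered bases of 20.9 to 48.7 kb in progenitor and 16.8 to 32.0 kb in neuron libraries. SPARCL1, one of these, was at 0 in 3 neuron libraries. Endothelial and mural markers were higher in progenitors at 2 of 7 loci (summed, 8.81 to 30.5 kb and 9.76 to 25.6 kb), and choroid plexus markers at 2 of 6 (7.04 to 30.9 kb and 7.85 to 33.1 kb). The remaining lists gave 2 of 8 GABAergic interneuron loci, 1 of 6 measured microglial loci and 0 of 7 oligodendrocyte-lineage loci (0 at an unadjusted p under 0.05) higher in progenitors, and limma called 0 loci of these lists higher in neurons (1 microglial and 1 endothelial or mural locus at an unadjusted p under 0.05). Their part in the channel results was not tested.

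**Figure D2:**
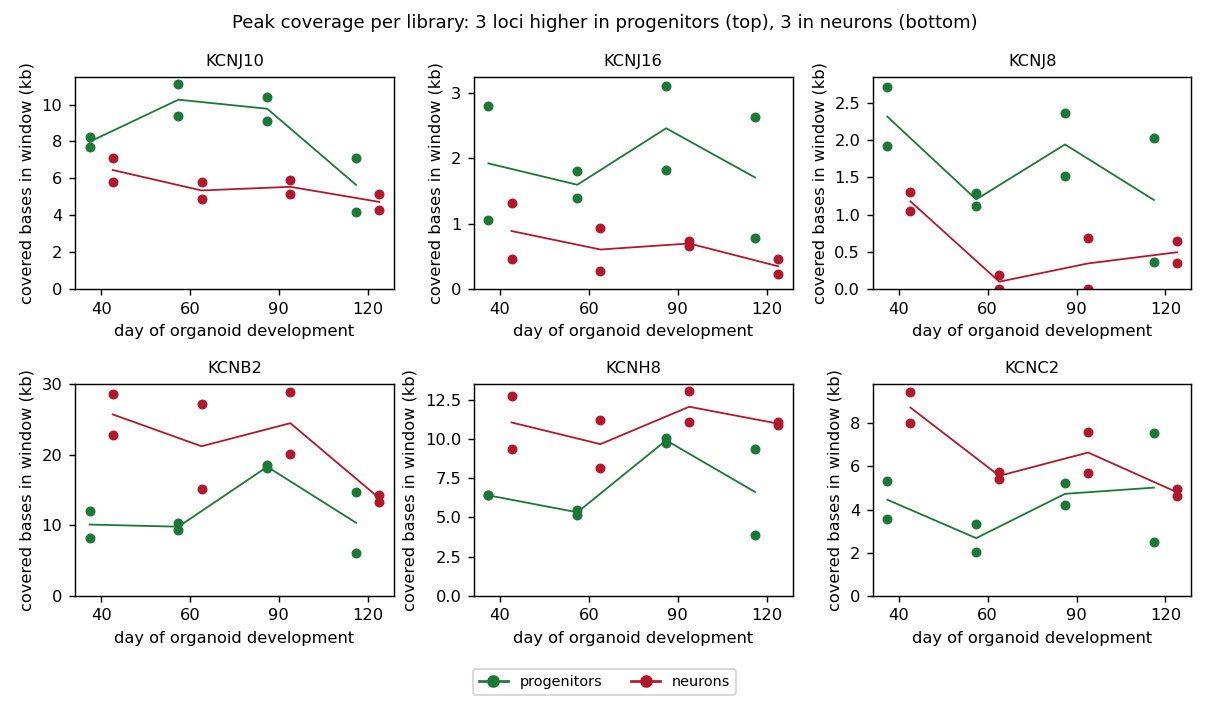
Covered bases in the window (kb, vertical axis) by day of organoid development for 3 loci that were higher in progenitors (top row) and 3 that were higher in neurons (bottom row); each point is 1 library and lines join the means of 2 libraries. Progenitor points of KCNJ10 lie above the neuron points at days 40 to 90, and neuron points of KCNB2 reach 28.9 kb where progenitor points reach 18.5 kb.

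Voltage-gated pore subunits of the Kv1 to Kv4 families open on depolarization and repolarize the action potential. Of 17 such loci, limma called 8 higher in neurons and 0 in progenitors (8 and 0 also at an unadjusted p under 0.05), with a median log2 difference of -0.29. The 8 are 47.1% of these loci, beside 11.1% of all genes tested higher in neurons and 9.89% higher in progenitors. The delayed rectifier gene KCNB2 (Kv2.2; chromosome 8, 72537225 to 72938349) had 6.0 to 18.5 kb of covered bases in progenitors, median 11.2 kb, and 13.3 to 28.9 kb in neurons, median 21.4 kb. Only the later progenitor libraries reached into the neuronal range, and the log2 difference was -0.87 ± 0.10 (SE, limma adjusted p = 5.44e-07). It was from -1.30 at day 60 to -0.45 at day 120. This call held under each alternative setting and with each single library left out, with log2 differences from -0.93 to -0.40.

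The Kv3 genes encode fast channels that allow rapid firing. KCNC2 (Kv3.2) had 2.01 to 7.54 kb in progenitors, median 3.89 kb, and 4.65 to 9.46 kb in neurons, median 5.70 kb. A single progenitor library, day 120 replicate 1, gave the 7.54 kb, and the log2 difference over all days was -0.66 ± 0.13 (SE, limma adjusted p = 0.000621) with -0.03 at day 120. Inside KCNC2, 3 regions were called in neurons: 2 had a peak in 0 progenitor and 7 neuron libraries, and the other in 1 and 8. KCNC1 (Kv3.1) had 4.45 kb ± 1.11 in progenitor and 6.28 kb ± 2.47 in neuron libraries, a difference of -0.45 (limma adjusted p = 0.00736). This call was lost with lists of equal length, at -0.01 (limma adjusted p = 0.933), and also at a −log10 q of at least 2 and with numbers of peaks. KCNC4 differed by -0.01 (limma adjusted p = 0.968).

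Among the Kv1 genes, whose channels set the firing threshold in axons, KCNA3, KCNA4, KCNA1 and KCNA2 were higher in neurons. KCNA3 had 1.41 to 3.92 kb in progenitors, median 2.84 kb, and 2.71 to 6.51 kb in neurons, median 4.22 kb, with a log2 difference of -0.69 ± 0.13 (SE, limma adjusted p = 0.000520). Its window shares 17881 bases with that of KCNA2, so these loci are not independent, and in the gene body alone the KCNA3 call was lost. KCNA4 had 1.41 kb ± 0.539 and 2.14 kb ± 0.860, a log2 difference of -0.52 (limma adjusted p = 0.00977). KCNA2 differed by -0.33 (limma adjusted p = 0.0423), and that call was lost on leaving out any 1 of 13 libraries. The A-type Kv4 genes KCND2, at 0.19 (limma adjusted p = 0.238), and KCND3, at 0.05 (limma adjusted p = 0.712), did not pass.

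Silent subunits form no channel of their own and change the properties of Kv2 channels when joined to them. Of 10 such loci, 2 were higher in neurons and 1 in progenitors (20% and 10%, beside 11.1% and 9.89% of all genes tested). KCNS2 (Kv9.2) had 0.00 to 1.87 kb in progenitors, median 1.19 kb, and 0.738 to 6.31 kb in neurons, median 2.54 kb. This was the lowest log2 difference among the members, -1.06 ± 0.18 (SE, limma adjusted p = 0.000103), and it was -0.04 (limma adjusted p = 0.921) with lists of equal length. KCNV1 (Kv8.1) had 1.72 kb ± 0.50 and 2.57 kb ± 0.411, a difference of -0.55 (limma adjusted p = 0.00505) that lay in the flanks: in the gene body covered bases were 0.941 kb ± 0.364 in progenitor and 0.856 kb ± 0.0308 in neuron libraries. KCNV2 (Kv8.2), by contrast, had 2.39 kb ± 1.20 in progenitor and 1.16 kb ± 0.379 in neuron libraries, a difference of 0.62 (limma adjusted p = 0.0108). For KCNV2 the gene body alone held 1.11 kb ± 0.508 and 0.202 kb ± 0.203.

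Kv7 channels carry the M-current, a slow potassium current that restrains repetitive firing, and in the heart KCNQ1 carries the slow delayed rectifier current. The 5 loci divided, with 2 higher in neurons and 2 in progenitors (40% each, beside 11.1% and 9.89% of all genes tested). KCNQ5, a subunit of the neuronal M-current, differed by -0.34 ± 0.10 (SE, limma adjusted p = 0.0121), and KCNQ3, another M-current subunit, by -0.19 ± 0.09 (SE, limma adjusted p = 0.138). The KCNQ5 call was lost without progenitor day 90 replicate 1 and without the 2 shortest lists. KCNQ1 differed by 0.28 ± 0.09 (SE, limma adjusted p = 0.0203), a call lost with flanks of 5 kb, in the gene body alone, with numbers of peaks and on leaving out progenitor day 40 replicate 2, day 60 replicate 2 or day 90 replicate 1 or neuron day 120 replicate 1.

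The KCNH genes encode the EAG, ERG and ELK channels, which open and close slowly and act near the resting potential. Of 8 loci, 3 were higher in neurons and 2 in progenitors (37.5% and 25%, beside 11.1% and 9.89% of all genes tested). KCNH8, an ELK channel gene of chromosome 3 (19148510 to 19535642), had 3.88 to 10.1 kb in progenitors, median 6.41 kb, and 8.16 to 13.1 kb in neurons, median 11.1 kb. Neurons were above progenitors of the same day in both libraries at all 4 days, with a log2 difference of -0.70 ± 0.09 (SE, limma adjusted p = 4.56e-06). As with KCNB2, this call held under each alternative setting and each single library left out, with log2 differences from -1.14 to -0.37. KCNH3 differed by -0.32 (limma adjusted p = 0.0401), and KCNH7 is described with the changes over days.

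The EAG channel genes KCNH5 and KCNH1 had higher scaled coverage in progenitors. KCNH5 had 4.17 to 7.65 kb in progenitors, median 6.87 kb, and 1.73 to 6.18 kb in neurons, median 4.55 kb, a log2 difference of 0.44 ± 0.12 (SE, limma adjusted p = 0.0109). KCNH1 had 13.4 kb ± 4.47 and 9.95 kb ± 3.54, a difference of 0.38 ± 0.10 (SE, limma adjusted p = 0.00590), with -0.04 at day 40 and 0.62 at day 90. Each had 1 region inside the gene with a peak in all 8 progenitor libraries and no neuron library.

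Channels opened by calcium or sodium ions couple firing to a slow after-hyperpolarization. Of 8 loci grouped here, limma called 4 higher in neurons and 0 in progenitors (4 and 1 at an unadjusted p under 0.05), with a median log2 difference of -0.34. The 4 are 50% of these loci, beside 11.1% of all genes tested higher in neurons and 9.89% higher in progenitors. They include KCNU1, known from sperm, to which neither opening by calcium or sodium nor the description by firing applies. The sodium-activated channel genes KCNT2 (Slick) and KCNT1 (Slack) differed by -0.73 ± 0.14 (SE, limma adjusted p = 0.000314) and -0.54 ± 0.16 (SE, limma adjusted p = 0.0179). The KCNT1 call was lost at a −log10 q of at least 2 and on leaving out progenitor day 120 replicate 1 or any 1 of 4 neuron libraries (day 40 replicate 2, day 60 replicate 1, day 90 replicate 2 and day 120 replicate 1), and its difference was between -1.145 and -0.234 over all settings. KCNT2 had 1.55 to 9.74 kb in progenitors, median 5.23 kb, and 4.11 to 13 kb in neurons, median 7.91 kb, and the difference was -1.43 at day 60 and -0.01 at day 120. KCNN2, of the small-conductance calcium-activated channels, had 4.45 to 10.9 kb in progenitors, median 9.63 kb, and 8.57 to 18.7 kb in neurons, median 11.7 kb, a difference of -0.51 ± 0.09 (SE, limma adjusted p = 0.000269). KCNU1, the Slo3 channel known from sperm, had 2.66 kb ± 1.07 and 4.49 kb ± 1.45, a difference of -0.75 ± 0.13 (SE, limma adjusted p = 0.000186). The large-conductance channel gene KCNMA1 differed by 0.24 ± 0.09 (SE, limma adjusted p = 0.0690) and KCNN3 by 0.03 ± 0.09 (SE, limma adjusted p = 0.884), so neither locus as a whole passed.

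Leak channels of the K2P family conduct at rest. Of 15 loci, 4 were higher in neurons and 1 in progenitors (26.7% and 6.67%, beside 11.1% and 9.89% of all genes tested). KCNK12 (THIK-2) had 2.45 to 9.76 kb in progenitors, median 4.86 kb, and 3.49 to 10.1 kb in neurons, median 9.39 kb, a log2 difference of -0.65 ± 0.12 (SE, limma adjusted p = 0.000270). It was -1.06 at day 40 and 0.01 at day 120. KCNK9 (TASK-3) differed by -0.42 ± 0.13 (SE, limma adjusted p = 0.0208) and KCNK2 (TREK-1) by -0.39 ± 0.13 (SE, limma adjusted p = 0.0319). The KCNK9 call was lost on leaving out any 1 of 5 libraries (replicate 1 of progenitor days 60 and 90 and of neuron days 40, 60 and 120) and under 5 alternative settings, being -0.075 (limma adjusted p = 0.797) with lists of equal length. The KCNK2 call was lost on leaving out any 1 of 10 libraries and its sign turned, to 0.22, when numbers of peaks replaced covered bases. KCNK10 (TREK-2), higher in progenitors, had 12.2 kb ± 3.37 and 9.30 kb ± 3.62, a difference of 0.33 ± 0.09 (SE, limma adjusted p = 0.00683).

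Auxiliary subunits set the gating and trafficking of the pores. Of 17 such loci, 2 were higher in progenitors and 1 in neurons (11.8% and 5.88%, beside 9.89% and 11.1% of all genes tested). KCNMB2, a beta subunit that inactivates the large-conductance channel, had 5.59 to 15.6 kb in progenitors, median 12.3 kb, and 4.14 to 13.3 kb in neurons, median 7.52 kb. The log2 difference was 0.56 ± 0.09 (SE, limma adjusted p = 9.83e-05), positive at each day, and 0.22 (limma adjusted p = 0.384) with lists of equal length. KCNMB4, the neuronal beta subunit of the same channel, went the other way, at -0.49 (limma adjusted p = 0.00821). The KCNE1 window had 1.80 kb ± 0.414 in progenitor and 0.693 kb ± 0.419 in neuron libraries, a difference of 0.96 (limma adjusted p = 0.000446), yet the gene body held 0.0255 kb ± 0.0721 and 0.00 kb: the covered bases lay beyond 5 kb of the gene, in a window that also holds RCAN1. The Kv4 partners KCNIP1 to KCNIP4 differed by 0.05, -0.05, -0.16 and -0.07 and KCNAB1 by -0.19, none past the threshold (limma adjusted p from 0.146 to 0.853). KCNMB4, KCNA1, KCNH3, KCNJ6 and KCNK1 (the last at -0.49, limma adjusted p = 0.0229) passed the test but fell outside the rule for named genes and were named after their values were seen; KCNMB4 and KCNH3 did not pass with lists of equal length.

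Other calls named between the populations also depended on the setting. Counting peaks in place of covered bases ended those of KCNA4, KCNE1, KCNH5, KCNJ3, KCNJ8, KCNK10, KCNK12, KCNU1, KCNV1 and KCNV2. A pseudocount of 2000 bases ended those of KCNA2, KCNA4, KCNE1, KCNV1 and KCNV2, and flanks of 5 kb those of KCNA2, KCNA3, KCNA4 and KCNV1. In the gene body alone KCNA4, KCNJ8 and KCNV1 did not pass, and at a −log10 q of at least 2 KCNA2 and KCNS2 did not. With lists of equal length KCNA3, KCNH7 and KCNV2 did not pass and KCNJ8 was not among the 89 loci tested, and without the 2 shortest lists KCNH5 did not pass.

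Genes outside the KCN symbols gave the following counts. Among 15 partners of potassium channels, 4 were higher in progenitors and 2 in neurons (26.7% and 13.3%, beside 9.89% and 11.1% of all genes tested). The voltage-gated sodium channel genes gave 1 and 3 of 14 (7.14% and 21.4%). The calcium channel genes (CACN) gave 0 and 8 of 26 (limma, with 1 and 11 at an unadjusted p under 0.05), with a median log2 difference of -0.19. The last share, 30.8%, is close to the 27.1% of the potassium channel genes, and no test of a difference between these families was made.

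Within the windows, accessible regions were compared by the presence of a peak, which does not depend on scaling. Peaks of all libraries were merged into regions, and those present in 2 to 14 of 16 libraries were tested by Fisher's exact test, adjusted over 182575 regions. Member windows held 2172 regions, of which 1251 were tested; 26 were called in progenitors and 11 in neurons. These are 2.08% and 0.879% of the tested regions in member windows, beside 3.06% and 1.27% of all tested regions. Progenitor-side calls made up 70.3% of member calls and 70.7% of all calls, whereas most of the called loci were higher in neurons. The calls were in the windows of 24 members, where KCNJ9 and KCNJ10 share the same called region. Of these members, 3 (KCNMA1, KCNN3 and KCNK2) had regions called in both directions. Leaving out single libraries gave 27 to 43 progenitor and 11 to 23 neuron regions; the move was over 1.5 times for progenitor regions without progenitor day 120 replicate 2 (42) or neuron day 40 replicate 2 (43), and for neuron regions without either library of neuron day 40 (19 and 23) or neuron day 120 (18 and 20), either of progenitor day 90 (17 each) or progenitor day 120 replicate 1 (17).

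None of the called regions overlapped a listed transcription start, and 96.2% of the progenitor and 100% of the neuron regions lay inside the member's gene. Their median distances to the nearest listed start of that member were 138973 and 40203 bases, against 64351 bases for tested regions that were not called and 11839.5 bases for the 168 regions with a peak in all 16 libraries. Of the latter, 21.4% overlapped a start. Members without a listed start, among them KCNB2, KCNK12, KCNMB4 and KCNQ1, gave no distance. Regions in those members counted as not overlapping a start. Counting a peak only where it covered 50% of the merged region, 2 progenitor and 0 neuron regions passed the threshold, with 81 and 52 at an unadjusted Fisher p under 0.05.

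KCND2, the Kv4.2 gene behind the dendritic A-type current, had 4 regions called in progenitors and none in neurons, although its locus did not pass. Of these, 3 (chromosome 7, 120332076 to 120333158, 120715562 to 120716826, and 120738325 to 120739204) had a peak in 8 of 8 progenitor and 0 of 8 neuron libraries (Fisher's exact test, adjusted p = 0.0118 each). The fourth region, at 120511415 to 120513019, had 8 and 1. The first was covered to 50% by peaks in 7 progenitor libraries and the fourth in 5, whereas the other 2 were so covered in 2 libraries each. With lists of equal length the KCND2 locus turned to -0.68 (limma adjusted p = 0.00117). Its relative KCND3 had 2 such regions, at 111791419 to 111792261 (8 and 0 libraries) and 111943360 to 111944734 (7 and 0) on chromosome 1.

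At KCNMA1 regions were called on both sides. A region at 76885666 to 76886566 on chromosome 10 had a peak in 8 progenitor and 0 neuron libraries, and one at 77629090 to 77629589, 8219 bases from the nearest listed start, in 7 and 0. A region at 77396487 to 77397509 had a peak in 0 and 7. In KCNN3 a region 25590 bases from a start was present in 0 progenitor and 8 neuron libraries (154832690 to 154834286 on chromosome 1), and one farther in, at 154726427 to 154728036, in 8 and 1. The loci of KCNMA1 and KCNN3 therefore joined regions of opposite direction in 1 value.

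In 12 members a called region had the direction of the called locus, among them KCNK2, which also had 2 progenitor regions against its locus. Neuronal examples were KCNT2 (196303305 to 196306445 on chromosome 1), KCNK12 (47567762 to 47568829 on chromosome 2) and KCNMB4 (70407844 to 70408856 on chromosome 12), each present in 0 progenitor and 8 neuron libraries. KCNMB2 had 3 progenitor regions, of which 178785670 to 178786598 and 178627549 to 178628730 on chromosome 3 were present in 8 and 0. In 9 members a region was called while the locus was not, and in 3 (KCNH8, KCNJ3 and KCNQ5) the called region was a progenitor region in a locus higher in neurons. The 9 include KCNJ9, whose only called region is the one inside KCNJ10, counted for both windows.

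**Figure D3:**
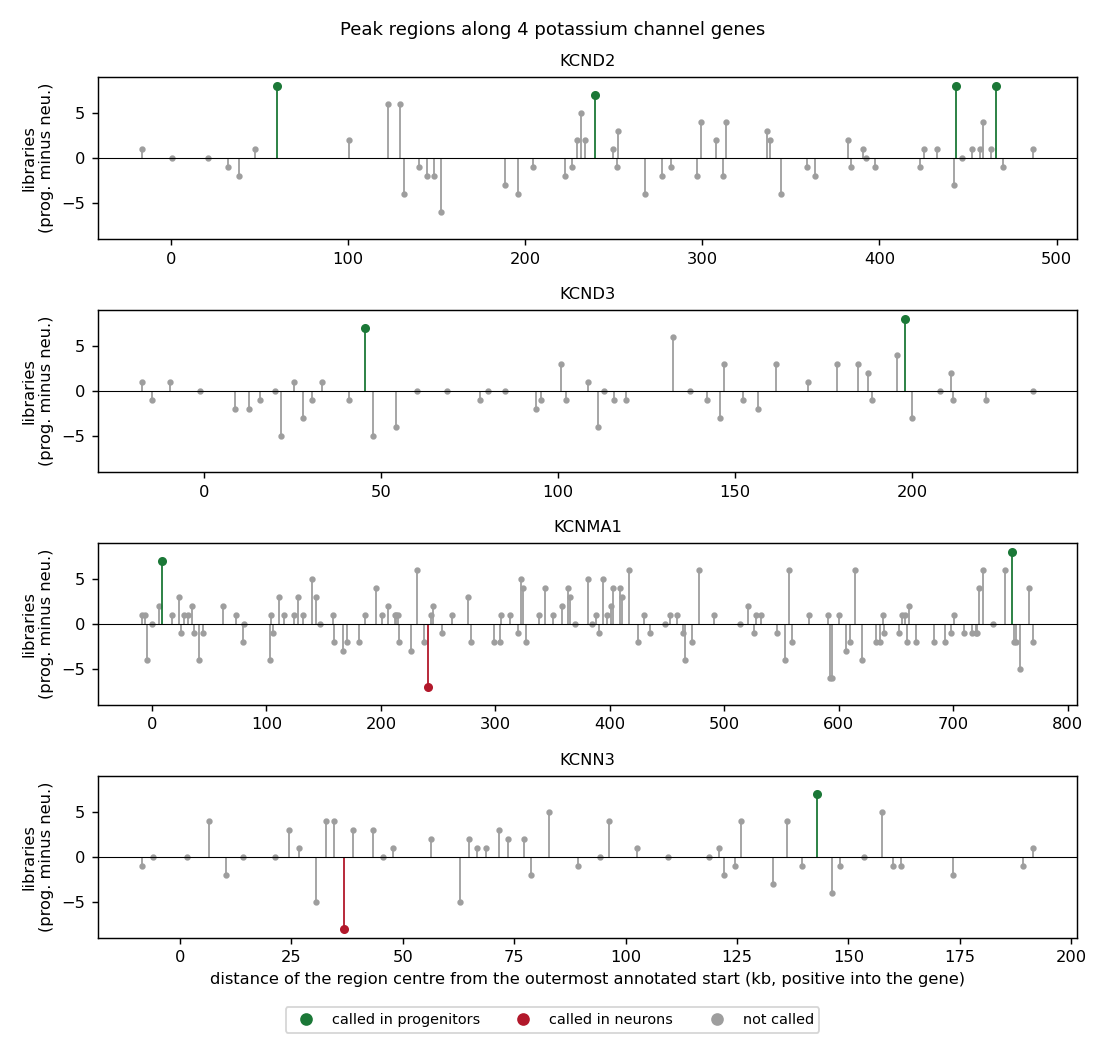
Merged peak regions along 4 potassium channel genes: distance of the region centre from the outermost annotated start (kb, positive into the gene) against the number of progenitor libraries minus the number of neuron libraries with a peak there. Green and red points are the called regions; KCND2 and KCND3 have only green ones (4 and 2), and KCNMA1 and KCNN3 have both colours.

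Changes over development were compared as the mean of days 90 and 120 minus the mean of days 40 and 60 within each population, 4 libraries against 4. In progenitors 4 members were higher late and 1 lower, beside 1.45% and 1.46% of all genes. In neurons 2 were higher late and 6 lower, beside 3.3% and 2.37%. Scaling matters here: the median of all genes was -0.05 in progenitors and 0.06 in neurons with it, and -0.16 and -0.20 without it. Unscaled, limma called 0 members in progenitors in either direction (2 higher and 10 lower at an unadjusted p under 0.05), and in neurons 0 higher (2 unadjusted) and 2 lower, KCNA6 and KCNQ1. In progenitors, leaving out day 120 replicate 1 gave 9 members higher, and leaving out day 90 replicate 2 gave 1, while leaving out either library of day 60 or day 90 replicate 1 gave 2. Members lower late in progenitors numbered 4 without progenitor day 120 replicate 2, and 2 without either library of neuron day 90 or neuron day 120 replicate 1.

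KCNH7, an ERG channel gene on chromosome 2 (162371407 to 162838767), had the largest late rise among the called members in progenitors. Its covered bases in progenitors were 6.61 and 8.73 kb at day 40, 9.76 and 6.76 kb at day 60, 23.8 and 18.9 kb at day 90, and 26.7 and 7.06 kb at day 120. The low value at day 120 is that of the shortest list. In neurons the values were 23.4, 16.9, 18.0 and 10.5 kb at days 40 and 60 and 15.2, 15.3, 14.8 and 11.4 kb at days 90 and 120. The log2 change in scaled coverage was 1.19 ± 0.14 in progenitors (SE, limma adjusted p = 6.24e-05) and 0.04 ± 0.14 in neurons (SE, limma adjusted p = 0.922). The difference between these changes was 1.15 ± 0.20 (SE, limma adjusted p = 0.0114), the only one to pass among the members, beside 0.64% of all genes. At days 40 and 60 neurons were above progenitors by 1.0 on the log2 scale, and at days 90 and 120 the difference was 0.13 and 0.16 toward progenitors. Without progenitor day 120 replicate 2, 3 members passed this test, and without neuron day 40 replicate 1 or day 90 replicate 2, 2 did. Without scaling the KCNH7 difference of changes was 1.30 (limma adjusted p = 0.662), and with lists of equal length 0.26 (limma adjusted p = 0.613).

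The other progenitor loci that were higher late were KCND3, KCNB2 and KCNH8. KCND3 (Kv4.3) had 16.2 kb ± 4.71 early and 23.6 kb ± 8.23 late in progenitors (SD, n = 4 each), a log2 change of 0.60 ± 0.12 (SE, limma adjusted p = 0.00829), and 20.5 kb ± 7.30 early and 15.7 kb ± 3.86 late in neurons, a change of -0.08 (limma adjusted p = 0.799). KCNB2 and KCNH8 changed by 0.51 (limma adjusted p = 0.0375) and 0.50 (limma adjusted p = 0.0338) in progenitors, and each call was lost under 4 or more alternative settings. The KCNB2 call was also lost without any 1 progenitor library other than day 40 replicate 2, and the KCNH8 call without any 1 progenitor library of days 40, 60 and 90. The KCND3 call was lost without progenitor day 90 replicate 2. All 4 of these genes encode voltage-gated subunits. In the contrast over the 4 days together, KCNB2, KCNH8 and KCNH7 were among the loci higher in neurons, KCNH7 through days 40 and 60 only.

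Of the 6 loci lower late in neurons, KCNA6, KCNJ5 and KCNQ1 changed most. KCNA6 (Kv1.6) had 7.91 and 10.2 kb at day 40, 5.75 and 5.46 kb at day 60, 3.90 and 5.52 kb at day 90, and 1.77 kb in both libraries at day 120. The log2 change in scaled coverage was -0.89 ± 0.17 (SE, limma adjusted p = 0.00226) in neurons, and this call held under each alternative. In progenitors the change was -0.08 ± 0.17 (SE, limma adjusted p = 0.910), and the difference between populations did not pass (0.82, limma adjusted p = 0.112). KCNQ1 had 21.0 and 23 kb at day 40 and 6.45 and 7.11 kb at day 120 in neurons, with 18.9 kb ± 4.60 early and 9.02 kb ± 2.64 late. Its log2 change was -0.77 ± 0.12 (SE, limma adjusted p = 0.000623), a call lost with lists of equal length and with numbers of peaks.

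KCNJ5, encoding the Kir3.4 subunit, was lower late in both populations, by -0.99 ± 0.17 in progenitors (SE, limma adjusted p = 0.00267) and -0.85 ± 0.17 in neurons (SE, limma adjusted p = 0.00473). Its covered bases were 7.39 kb ± 1.83 early and 4.0 kb ± 2.60 late in progenitors, and 7.77 kb ± 4.53 and 2.91 kb ± 0.512 in neurons. The calls were lost without scaling, with lists of equal length, with flanks of 5 kb and in the gene body alone. KCNIP1 changed by -0.61 (limma adjusted p = 0.00483), KCNC4 by -0.48 (limma adjusted p = 0.0285) and KCNK10 by -0.40 (limma adjusted p = 0.0497) in neurons. The KCNK10 call was lost on leaving out any 1 of 13 libraries and under 6 alternative settings, and the KCNC4 call on leaving out any 1 of 5 neuron libraries (day 40 replicate 2, day 60 replicate 1, either of day 90 and day 120 replicate 2) and under 7 settings. The KCNIP1 call was lost with numbers of peaks and without scaling. In the other direction KCNJ15 and KCNK2 were higher late in neurons, by 1.20 ± 0.32 (SE, limma adjusted p = 0.0262) and 0.67 ± 0.18 (SE, limma adjusted p = 0.0305). KCNJ15 had 0.317 kb ± 0.397 early and 1.16 kb ± 0.814 late in neurons, so this is a change among sparse peaks. Without neuron day 40 replicate 2, day 90 replicate 1, day 120 replicate 1 or day 120 replicate 2, limma called 0 members higher late in neurons (7, 9, 8 and 6 at an unadjusted p under 0.05). Without either library of neuron day 60 it called 1, and without either library of progenitor day 120 it called 5.

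**Figure D4:**
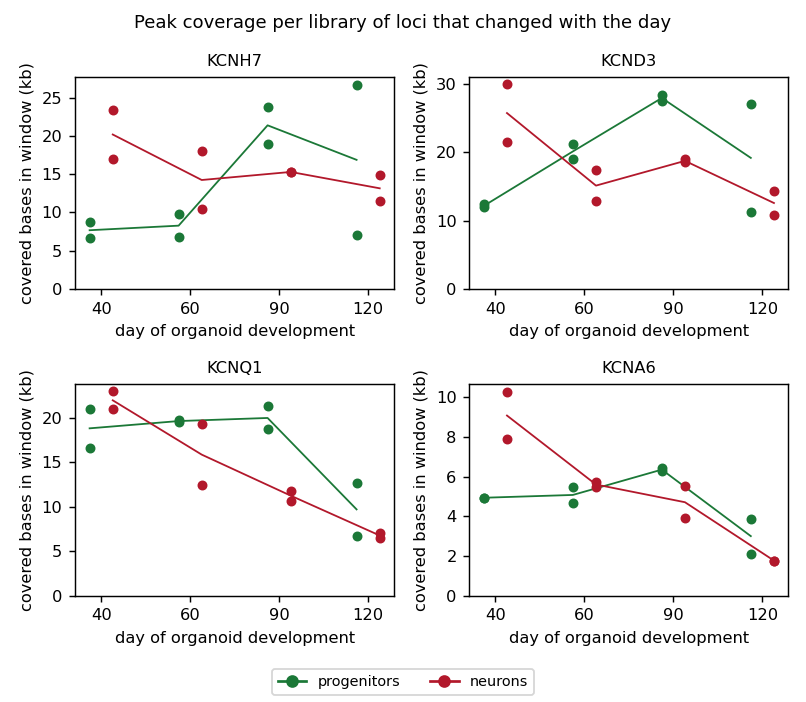
Covered bases in the window (kb, vertical axis) by day of organoid development for KCNH7, KCND3, KCNQ1 and KCNA6; each point is 1 library and lines join the means of 2 libraries. KCNH7 in progenitors lies between 6.61 and 9.76 kb at days 40 and 60 and at 18.9 kb or above in 3 of the 4 later libraries, and KCNA6 in neurons falls to 1.77 kb at day 120.

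At promoters, defined as 250 bases before to 50 bases after a RefSeq start, the 2 populations were close. Such starts were listed for 72 of the 96 members; a peak overlapped the promoter of 57.3% ± 8.33 of these in progenitor and 56.6% ± 5.49 in neuron libraries (SD, n = 8 each). Promoters of 22 members (30.6%) had a peak in all 16 libraries, against 56.8% of 15811 protein-coding genes, and 20 members (27.8%) had none in any library, against 22.3%. Those open throughout included KCNA2, KCNH8, KCNJ10, KCNK2 and KCNQ5, and those without a peak included KCNE1, KCNJ3, KCNJ15 and KCNV2. The median number of CG in the 300 bases was 28.5 in the first group and 7 in the second, against 21 over all promoters.

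At the promoter 1 member had a peak in at least 6 more progenitor libraries and 1 in at least 6 more neuron libraries, of 72, beside 0.626% and 0.171% of 15811 protein-coding genes. With lists of equal length the member counts were 0 and 2, beside 0.493% and 0.835%. The sequences of the first pair are shown for the contrast in their letters. KCNJ13 encodes Kir7.1, known from choroid plexus and retinal pigment epithelium, and had a promoter peak in 6 progenitor and 0 neuron libraries. These 6 are the progenitor libraries of days 40, 60 and 90. At day 120 neither progenitor library had a covered base in the KCNJ13 window, so the populations did not differ there at the promoter. KCNH4, an ELK channel gene, had one in 0 progenitor and 6 neuron libraries. The 250 bases before the start, with every CG in capitals, lie at chr2:232776566-232776815 for KCNJ13 and chr17:42181143-42181392 for KCNH4, both on the minus strand.
KCNJ13: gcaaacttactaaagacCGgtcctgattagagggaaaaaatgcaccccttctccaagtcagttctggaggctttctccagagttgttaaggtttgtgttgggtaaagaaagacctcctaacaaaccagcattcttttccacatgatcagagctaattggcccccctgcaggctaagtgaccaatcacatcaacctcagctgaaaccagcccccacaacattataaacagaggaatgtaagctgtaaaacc
KCNH4: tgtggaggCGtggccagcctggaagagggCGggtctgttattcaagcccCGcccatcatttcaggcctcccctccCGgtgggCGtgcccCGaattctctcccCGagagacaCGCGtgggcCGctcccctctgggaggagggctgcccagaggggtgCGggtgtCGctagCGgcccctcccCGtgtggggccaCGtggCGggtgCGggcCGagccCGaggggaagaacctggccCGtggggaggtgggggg
KCNJ13 has 1 CG in this stretch and KCNH4 has 20. The letters TATAAA begin 30 bases before the KCNJ13 start and CCAAT 71 bases before it on the same strand; neither is present in the printed KCNH4 stretch. On either strand, TATAAA is in 8.18% of the 110 member promoters and 9.46% of all 22131 promoters, and CCAAT in 35.5% and 34.6%. At neither locus did scaled coverage pass, with 0.39 (limma adjusted p = 0.314) for KCNJ13 and -0.28 (limma adjusted p = 0.155) for KCNH4. The KCNJ13 window was sparse, with 0.00 to 1.34 kb in progenitors and 0.00 to 1.20 kb in neurons.

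Other motifs were also counted on both strands of the 110 promoters. CAGATG, an E-box bound by proneural factors, was in 18.2% of member promoters and 12.2% of all promoters. ACAATG, a SOX element, was in 5.45% and 8.16%, TTGGCA, an NFI element, in 12.7% and 11.1%, and TGACGTCA, the CRE, in 0.909% and 2.26%. TTCAGCACC, the left part of the RE1 element, was in 2 of 110, at KCNK3 and KCNH6, and in 0.352% of all promoters. The right part of the same element was in 0 of 110 member promoters and in 0.303% of all promoters.

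**Figure D5:**
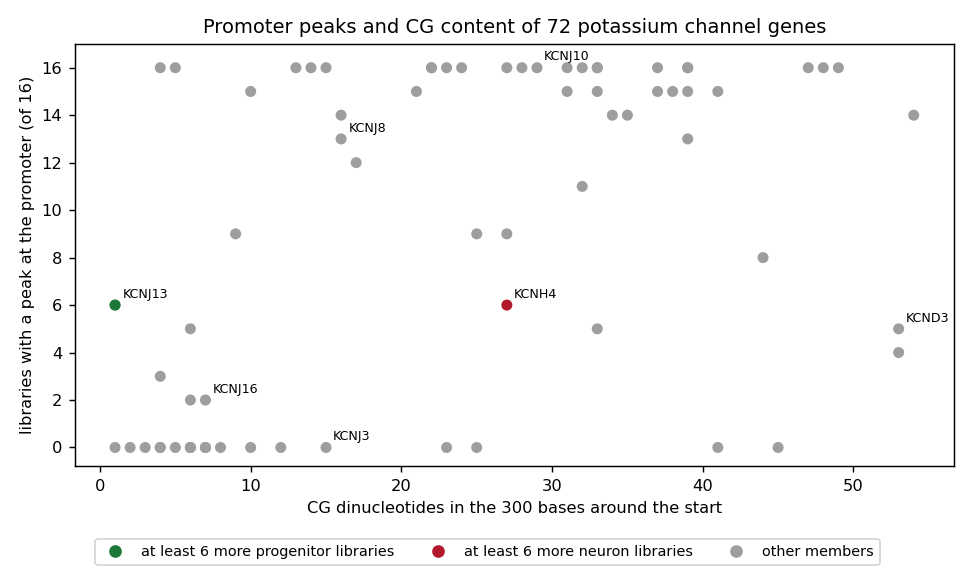
Number of CG in the 300 bases around the start (horizontal axis) against the number of libraries, of 16, with a peak at the promoter (vertical axis) for 72 potassium channel genes; each point is 1 gene. Green and red mark KCNJ13 and KCNH4, both with a peak in 6 libraries; points at 16 and at 0 are the 22 and 20 genes with a peak in all libraries and in none.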

How the data were processed

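ATAC-seq libraries were made from nuclei treated with Tn5 for 30 minutes, per the labels' protocols. Reads were processed on hg38 with BWA 0.7.17, MACS2 2.1.2, Picard, SAMtools 1.9 and Trim Galore 0.5.0, per the submitters' processing notes. The sources used here give no order of steps, filters or Tn5 shift. The authors deposited 1 broad peak list per library, whose columns are a peak score, a fold enrichment (ratio), and −log10 p and −log10 q values. The deposited −log10 q values start at 1.00 to 1.01 and were used only to cut lists; the score, fold and −log10 p were not used. Read depth is unknown, so peak number and covered length describe each list.

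Peaks on chromosomes 1 to 22 and X were kept (95 to 387 peaks left out per library) and covered bases counted in each gene's window. Coordinates and gene names came from RefSeq (GRCh38.p14). The main test was limma 3.58.1 with a trend (R 4.3.3) on log2(covered bases + 500) minus log2 of the library's covered bases, with 8 group means over all 16 libraries and Benjamini-Hochberg adjustment over 18751 genes. The pseudocount makes fold changes of sparse loci smaller. On simulated data for the population contrast over these 18751 genes, the fit recovered 47% of changes of 0.5 and 93% of changes of 1 (log2), with 6.04% of calls false. In that simulation 200 genes were changed, with independent normal noise for each gene and no effect of day or library. Its rates need not hold for the calls reported here. Regions were tested by Fisher's exact test (scipy 1.17.1) and single values by exact permutation over samples.

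Members, lists and tests were chosen with earlier results of these data known. Genes named are the 12 members with the largest difference in each direction among those called between populations, the 6 largest in each late contrast and direction, any member with no covered base in all libraries (there were none), members whose promoter differed by at least 6 of 8 libraries, and channels fixed by name (glial inward rectifiers, M-current, neuronal voltage-gated, calcium- or sodium-activated, leak and auxiliary subunits). Alternatives covered scaling, list length, flanks, the −log10 q limit, pseudocount, filter, number of peaks, the 2 shortest lists, a replicate block and each library left out. KCNJ12 and KCNJ18 are near-identical copies, so their peaks are uncertain. Some results for single genes are not reported here, and the counts over all members include them.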

Additional observations from a re-analysis of the deposited data

Results flagged for a closer look

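In groups of 8 libraries, a lowest or highest value standing apart from the rest (Dixon's gap) was looked for in the covered bases of 45 named members, 90 groups in all. Chance gives such a value in about 1 in 20 groups, and 6 were found. Of these, 4 were the lowest progenitor value and came from day 120 replicate 2, the shortest list: KCNA4 at 0.232 kb, KCNK10 at 4.75 kb, KCNN2 at 4.45 kb and KCNV1 at 0.584 kb. KCNV1 also had its lowest neuron value, 1.70 kb, in day 60 replicate 2, the second shortest list. KCNIP4 had its highest progenitor value, 42.2 kb, in day 120 replicate 1, against 7.91 kb in the other library of that day.

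The late minus early change of KCNH7 differed between the populations by 1.15 on the log2 scale of scaled coverage (interaction term, limma adjusted p = 0.0114).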

How the results depend on the processing

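Counts below are given in the order higher in progenitors, higher in neurons, higher and lower late in progenitors, higher and lower late in neurons, and loci whose change differed; the reported counts are 12, 26, 4, 1, 2, 6 and 1. Without scaling the 7 counts were 6, 7, 0, 0, 0, 2 and 0 (limma). With lists of equal length, where 89 members were tested, higher in progenitors numbered 7 (7.87%, beside 11.4% of all genes) and the 5 late counts were 9, 5, 4, 10 and 5, while 27 were higher in neurons (30.3%, beside 16.6%). Loci higher late in neurons numbered 1 with a pseudocount of 100 or 2000 bases or with numbers of peaks, and 4 without the 2 shortest lists. Loci lower late in neurons numbered 3 with flanks of 5 kb. Loci lower late in progenitors numbered 0 with flanks of 5 kb (7 unadjusted) or the gene body (3 unadjusted), 2 at a −log10 q of at least 2, and 5 without the 2 shortest lists. Loci whose change differed numbered 5 at a −log10 q of at least 2, 0 with numbers of peaks (15 and 7 at an unadjusted p under 0.05) and 7 without the 2 shortest lists. Leaving out single libraries gave 11 to 14 higher in progenitors, 18 to 29 in neurons, 1 to 9 and 1 to 4 higher and lower late in progenitors, 0 to 5 and 4 to 7 in neurons, and 1 to 3 whose change differed. Progenitor regions numbered 15 with lists of equal length and 2 with 50% coverage, neuron regions 0 with 50% coverage, and single libraries left out gave 27 to 43 and 11 to 23. Replicate numbers were shared between populations, but deviations of same-numbered libraries correlated at -0.123, 0.214, 0.064 and 0.157 at days 40, 60, 90 and 120, which does not settle whether the numbers pair libraries. With replicate number as a replicate block the counts were 12 and 26, with day and number 13 and 27, and then 3 loci differed in change. A sign test over 8 pairs as the block called 0 and 0 regions (70 and 41 unadjusted, smallest adjusted p = 0.320). The smallest p that 8 pairs allow cannot pass the adjustment unless a large share of all tested regions reach it. These counts of 0 therefore decide nothing about the region calls. Signs turned for KCNK2 (0.22) with numbers of peaks, for KCND2 (-0.68), KCNV2 (-0.10), KCNH8 late in progenitors (-0.28) and KCNK2 late in neurons (-0.43) with lists of equal length, and for KCNV1 in the gene body (0.005) and, in covered bases, with flanks of 5 kb (0.0759 kb). Unless a setting's own construction shows it, the cause was not tested. Read depth is unknown and a locus with few peaks is measured coarsely.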

Other observations

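Covered bases summed over the 96 potassium channel windows came to 0.608% to 0.686% of those of a progenitor library. For a neuron library the sum came to 0.666% to 0.787%. Bases in a window shared by members were counted for each member. The highest share was that of neuron day 40 replicate 2. In neurons both libraries of day 120 had lower shares (0.673% and 0.666%) than any library of days 40 and 60. Per library, 0 to 7 of the 96 windows had no covered base, most in neuron day 120 replicate 1. KCNJ18 had on average 0.127 kb of covered bases in progenitors and 0.0920 kb in neurons, and its log2 difference in scaled coverage was 0.01 (limma adjusted p = 0.989).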
